A study of Mus musculus with 38 samples.

Results

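The genes described are 7 of those that carry out or switch on MHC class II antigen presentation in the mouse, listed by name. They are the regulator Ciita, the peptide-binding chains H2-Aa, H2-Ab1 and H2-Eb1, the invariant chain Cd74, and the peptide editor chains H2-DMa and H2-DMb1. All 7 were matched to a row by their Ensembl identifier, out of 55487 rows in each of 3 tables of raw gene counts. The list names genes and sets no threshold on a measured value, but it was drawn up with earlier results of these data known.

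MHC class II molecules show peptides from proteins taken up by a cell to CD4+ T cells. An alpha and a beta chain (H2-Aa with H2-Ab1, or H2-Eb1 with an E alpha chain) pair in the endoplasmic reticulum with the invariant chain, Cd74, which blocks the peptide groove until it is cut in the endosome, and H2-DM, the pair of H2-DMa and H2-DMb1, then exchanges its last fragment for other peptides. Ciita does not bind DNA itself: it joins the factors that sit on the X and Y boxes of class II promoters (the RFX complex, CREB and NF-Y) and is known as the switch of the whole set, driven in macrophages and microglia above all by interferon gamma through the kinases Jak1 and Jak2 and the factor Irf1.

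The study measured poly(A) RNA by sequencing in mouse cells kept for 16 h at 21% O2 (normoxia) or at under 0.1% O2 (hypoxia). BV2 is a mouse microglial line, GL261 a mouse glioma line that here stably carried pEGFP-N1, and BMDM are wild-type primary macrophages grown from bone marrow. Cultures held 1 cell type, or GL261 in contact with BV2 (2 glioma cells to 1 BV2 cell) or with BMDM (1 to 1). The labels of co-cultured GL261 do not name its partner, which is taken here as BV2 because BV2 and GL261 share 1 count table. In a separate experiment BV2 or BMDM received the solvent DMSO in normoxia, DMSO in hypoxia, or the histone deacetylase inhibitor panobinostat at 10 nM in hypoxia. Panobinostat in normoxia was not analysed here. BV2 and GL261 are each an established line, so replicates of a line share their origin, and BV2 medium held less serum than BMDM medium. The labels call the samples of a group biological replicates without saying whether they came from separate mice or cultures, so p-values measure the spread between these samples. There were 18 groups and 38 libraries, with n = 2 in every group except the co-cultured BMDM in normoxia and in hypoxia, which had n = 3.

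Libraries held between 9634700 and 27238900 counts, so that 3 counts, taken here as the lower limit of detection of a library, corresponded to 0.110 to 0.311 CPM (the usual depth-scaled unit, a gene's count against the library's total count). Levels below are plain CPM, and differences are log2 fold changes from edgeR's quasi-likelihood model, called where the p adjusted over all genes tested (Benjamini-Hochberg) was below 0.05. The model scales libraries by TMM, which moved hypoxia against normoxia up by 0.26 in BMDM alone and 0.12 in co-cultured BMDM on the log2 scale against plain CPM, and panobinostat against DMSO in BMDM by -0.30. In co-cultures, RNA of the partner made up 0.237% to 3.74% of the counts on average, estimated from genes whose level in the partner grown alone was 100 or more times that in the cell studied. Of 8 macrophage markers, all had at least 3 counts in BMDM and BV2, Sall1 of the microglial markers was at 0 in BV2 alone, and Itgam and Aif1 of the macrophage markers were at 0 in GL261 alone. In bulk RNA, fewer cells of a type and less RNA per cell cannot be told apart.

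H2-Aa (chr17:34282744-34287823, minus strand), H2-Ab1 (chr17:34257689-34269419, plus), H2-Eb1 (chr17:34305867-34316674, plus), H2-DMa (chr17:34119541-34139101, plus) and H2-DMb1 (chr17:34153072-34160230, plus) lie together in the major histocompatibility complex of GRCm38. Ciita (chr16:10480059-10528418, plus) and Cd74 lie on other chromosomes. RefSeq promoters (GRCm38.p6) were matched for 4 of the 7 genes: H2-Aa, H2-Eb1, H2-DMa and H2-DMb1. Stretches of the H2-Aa and H2-Eb1 promoters are shown, 5′ to 3′ along the gene's strand, because these are the members that had no count in BV2 with DMSO and were present with panobinostat. Capitals mark the Y box GATTGG (in H2-Eb1 also once on the opposite strand, as its reverse complement), the X box AACNGATG and the cyclic AMP response element TGACGTCA.
H2-Aa, chr17:34287847-34287917: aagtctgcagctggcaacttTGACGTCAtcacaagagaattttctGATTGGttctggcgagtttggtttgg
H2-Eb1, chr17:34305758-34305857: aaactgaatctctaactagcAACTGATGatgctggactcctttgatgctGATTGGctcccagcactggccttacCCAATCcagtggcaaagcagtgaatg

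The letters of the Y box lie 49 to 44 bases before the start of H2-Aa and 60 to 55 before that of H2-Eb1. Those of the X box lie 89 to 82 bases before H2-Eb1, and those of the cyclic AMP response element 74 to 67 before H2-Aa. H2-DMb1 held the letters of both boxes, the X box at 92 to 85 and the Y box at 62 to 57 bases before its start. Of 32851 mouse promoters searched on both strands over the same 250 bases, 14.56% held the Y box, 1.985% the X box, 1.546% the cyclic AMP response element and 0.2496% both X and Y boxes. H2-DMa has 2 starts in RefSeq, of which 1 held none of these letters and the other only the Y box, and nothing about a factor is drawn from that. A match of letters describes the sequence and is not a measured binding site.

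Per kilobase of exon and by group mean, Cd74 was the highest member in BMDM and BV2 alone in normoxia, and the order of the others differed between cell types. In BMDM alone in normoxia the mean was 52.1 CPM per kilobase for Cd74, 17.0 for H2-DMb1, 8.47 for H2-Ab1, 6.35 for H2-Eb1, 4.78 for H2-DMa, 3.47 for H2-Aa and 0.325 for Ciita. In BV2 alone in normoxia it was 71.0 CPM per kilobase for Cd74 and 7.90 for H2-DMb1, while H2-DMa was at 0.348, Ciita at 0.0249 and the 3 peptide-binding chains at 0.0117 or below. In GL261 alone in normoxia H2-DMb1 was highest at 7.88 CPM per kilobase, followed by H2-DMa at 2.23, H2-Aa at 1.14, Cd74 at 1.00 and H2-Ab1 at 0.392. BV2 thus had Cd74 and H2-DMb1 transcripts with 1 count or none of H2-Aa, H2-Ab1 and H2-Eb1 in each of those libraries.

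**Figure D1:**
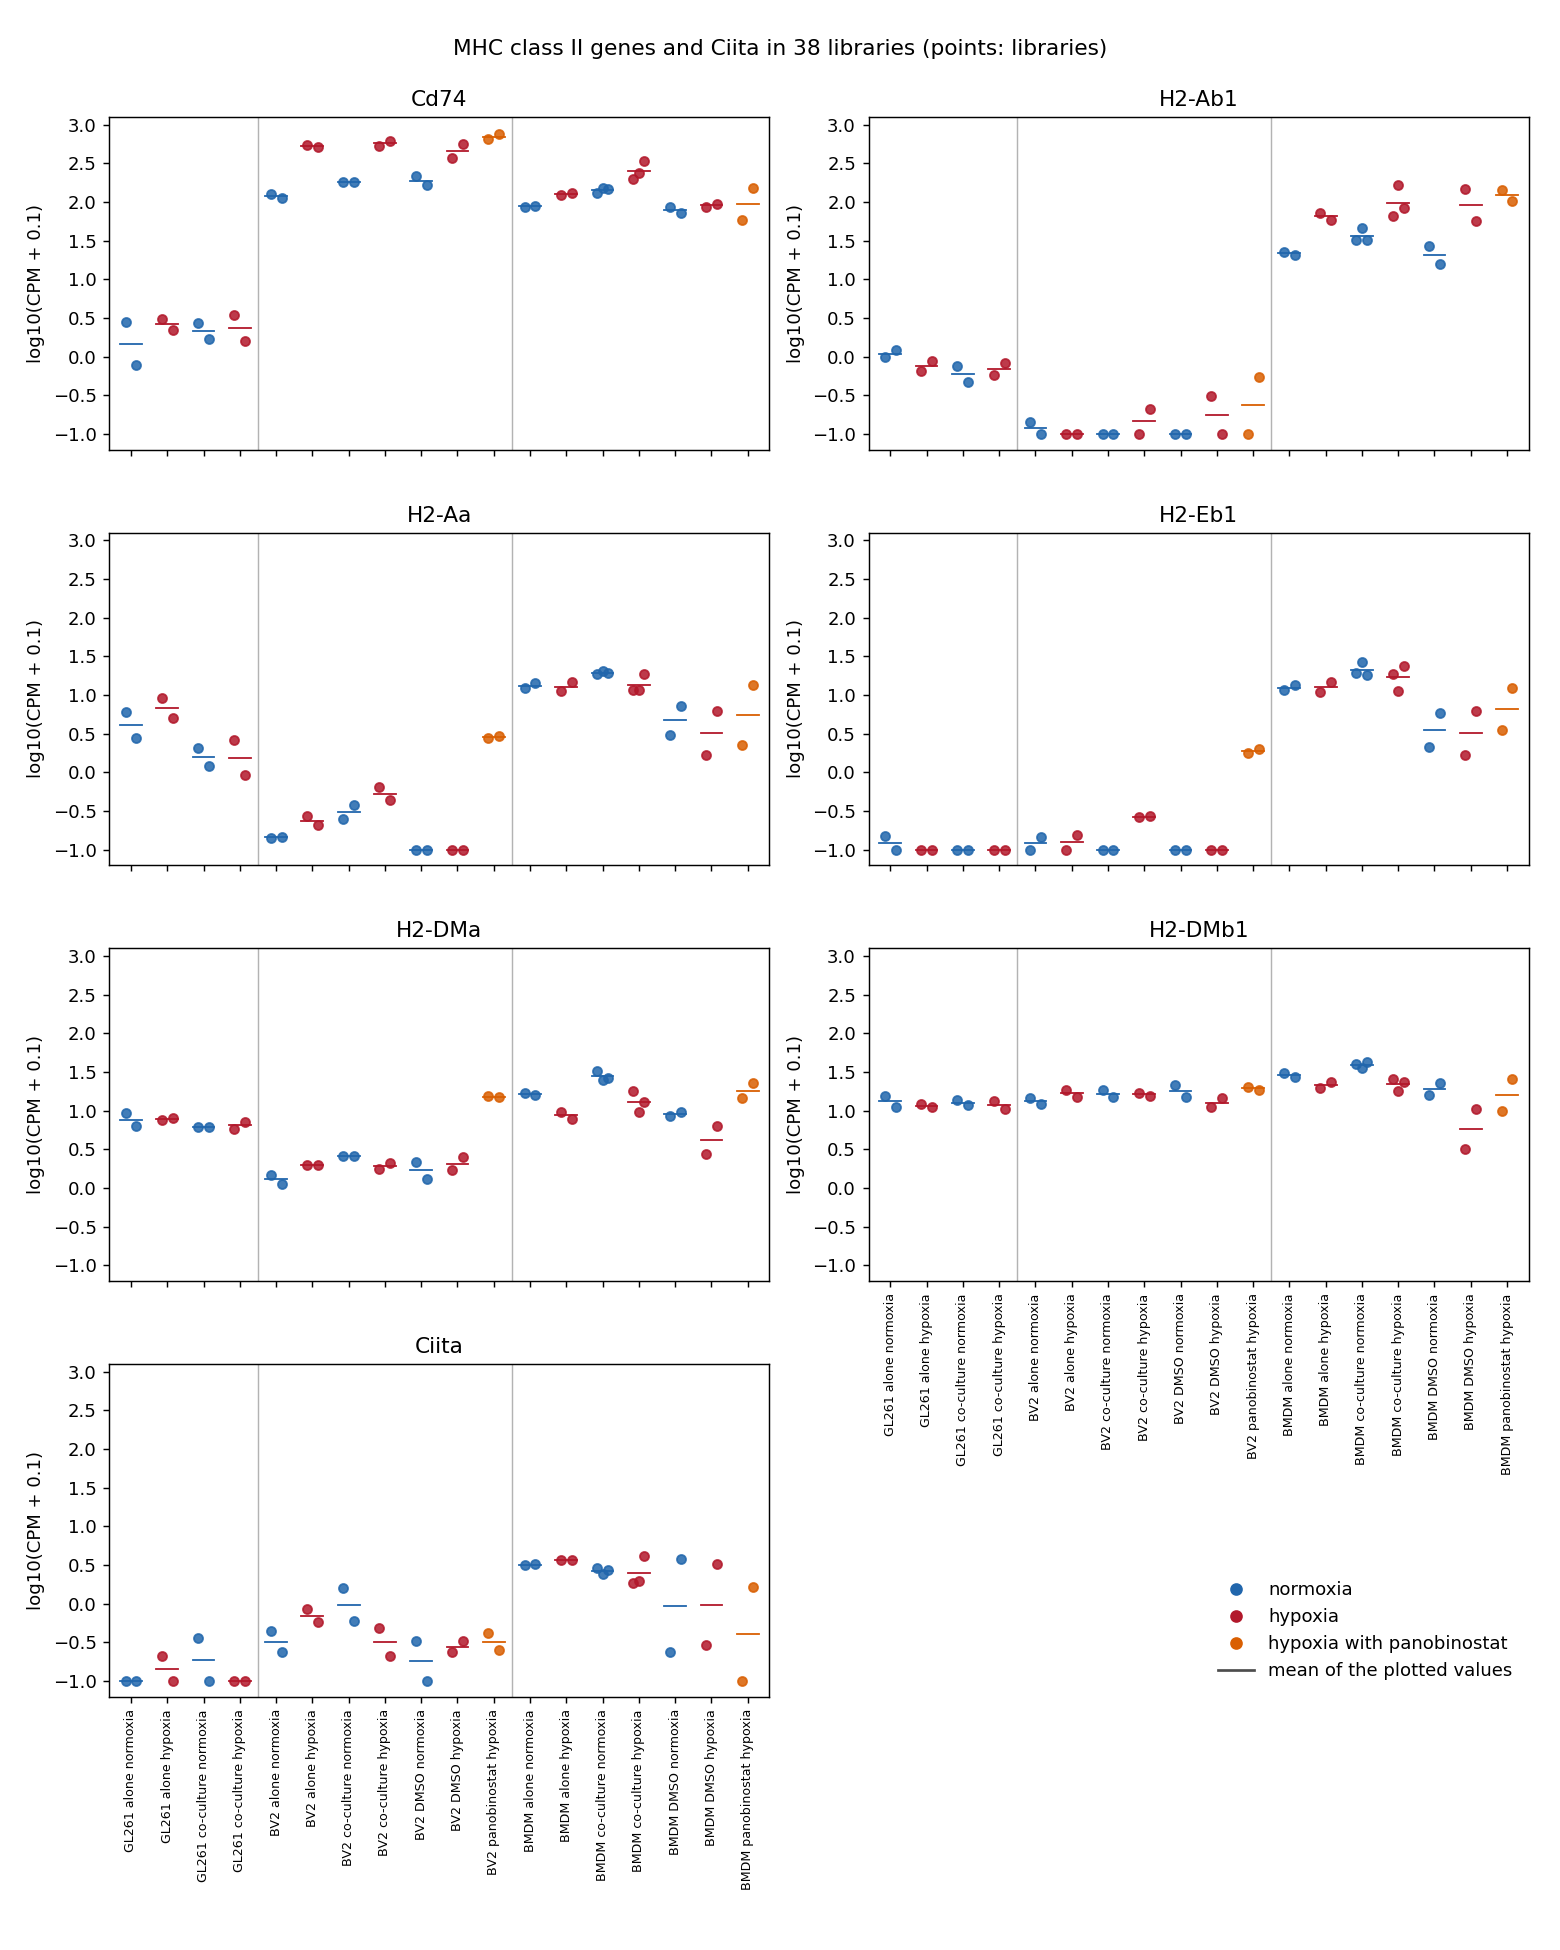
Level of each of the 7 genes in each library, as log10 of CPM plus 0.1, over the 18 groups. Points are libraries (n = 2 or 3) coloured by oxygen and drug and lines are means of the plotted values; Cd74 lies between 58.3 and 748.2 CPM in the BV2 and BMDM libraries, whereas H2-Ab1 is at most 0.45 CPM in BV2, and the bottom line of each panel (-1) stands for 0 counts.

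Across the 18 groups, ordered by mean plain CPM, H2-Ab1 was highest in the 7 BMDM groups, from 122.96 ± 26.7 (SD, n = 2) with panobinostat in hypoxia to 21.4 ± 7.76 (n = 2) with DMSO in normoxia. It was 0.510 to 1.01 CPM in the 4 GL261 groups and at most 0.227 in the 7 BV2 groups. H2-Aa was also highest in BMDM, but GL261 alone, at 4.33 ± 2.28 in normoxia and 7.0 ± 2.82 in hypoxia (n = 2), lay within the range of the BMDM of the panobinostat experiment, and BV2 with panobinostat (2.78 ± 0.134, n = 2) lay above co-cultured GL261. H2-Eb1 was highest in co-cultured BMDM in normoxia (21.3 ± 4.6, n = 3) and, outside BMDM, reached 1.78 ± 0.164 (n = 2) in BV2 with panobinostat and at most 0.166 elsewhere. Ciita had its highest mean, 3.55 ± 0.0329 CPM (n = 2), in BMDM alone in hypoxia, and no BV2 or GL261 group exceeded 0.985. Cd74 ran from 702.7 ± 64.5 (n = 2) in BV2 with panobinostat, through the other hypoxic BV2 groups (575.4 ± 59.9 in co-culture, 533 ± 22.9 alone and 467.9 ± 129.3 with DMSO), to 1.68 ± 1.42 in GL261 alone in normoxia. H2-DMa ran from 28.1 ± 3.86 (n = 3) in co-cultured BMDM in normoxia to 1.20 ± 0.222 (n = 2) in BV2 alone in normoxia. H2-DMb1 ran from 39.4 ± 3.63 (n = 3) to 6.75 ± 5.14 (n = 2), both in BMDM. Most neighbours in these orders overlapped: 11 of 17 pairs of adjacent groups for H2-DMa, 12 for H2-Aa, 13 each for H2-Ab1, Cd74 and H2-DMb1, 14 for Ciita and 15 for H2-Eb1. These levels come from tables counted separately and are set side by side without a test.

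The first comparison asked how oxygen shortage changed the class II genes of primary macrophages. In BMDM alone, hypoxia raised H2-Ab1 and Cd74 and no other member was called, 2 of 7 against 23.9% of the 14806 genes tested. In co-cultured BMDM it raised the same 2 genes and lowered both H2-DM chains, 4 of 7 against 34.8% of genes tested. The beta chain H2-Ab1 rose 3.01-fold alone and 2.85-fold in co-culture in plain CPM, while its partner H2-Aa was not called in either setting.

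Ciita in BMDM alone was 3.06 and 3.13 CPM in normoxia and 3.52 and 3.57 in hypoxia. In co-culture Ciita was 2.81, 2.34 and 2.62 CPM in normoxia and 1.75, 1.85 and 4.05 in hypoxia. The hypoxic co-cultures lay on both sides of the normoxic ones. Its log2 fold change was 0.45 (SE 0.39, adjusted p = 0.43) alone and 0.08 (SE 0.33, adjusted p = 0.88) in co-culture, where plain CPM gave 0.984-fold.

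H2-Ab1 in BMDM alone was 22.8 and 20.8 CPM in normoxia and 71.6 and 59.3 in hypoxia. In co-culture it was 32.1, 45.6 and 32.1 CPM in normoxia and 65.0, 163.9 and 83.9 in hypoxia. Every hypoxic library was above every normoxic library of the same culture. The log2 fold change was 1.84 (SE 0.39, adjusted p = 0.0072) alone and 1.65 (SE 0.32, adjusted p = 0.0023) in co-culture. In BMDM alone the call was lost without normoxia replicate 1 (adjusted p = 0.062) or normoxia replicate 2 (adjusted p = 0.071), with log2 fold changes of 1.85 and 1.69.

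H2-Aa, the alpha chain that pairs with H2-Ab1, was 12.1 and 14.2 CPM in normoxia and 11 and 14.7 in hypoxia in BMDM alone. In co-culture H2-Aa was 18.4, 20.6 and 19.2 CPM in normoxia and 11.6, 11.4 and 18.9 in hypoxia. The ranges overlapped in both cultures. Its log2 fold change was 0.23 (SE 0.25, adjusted p = 0.55) alone, where plain CPM gave 0.977-fold, the other direction, and -0.37 (SE 0.20, adjusted p = 0.18) in co-culture. In co-culture it was called lower without hypoxia replicate 3 (-0.60, adjusted p = 0.040). With the replicate number as a block it was not called (-0.40, adjusted p = 0.096). H2-Eb1, the E beta chain, was 11.5 and 13.2 CPM in normoxia and 10.8 and 14.6 in hypoxia alone, and 19.3, 26.5 and 18 against 18.4, 11.1 and 23.8 in co-culture, also overlapping.

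The ratio of H2-Ab1 to H2-Aa CPM in the same library compares the chains without any scaling between libraries. It was 1.88 and 1.46 in BMDM alone in normoxia and 6.49 and 4.03 in hypoxia. In co-culture it was 1.74, 2.21 and 1.67 in normoxia and 5.61, 14.4 and 4.44 in hypoxia. All 5 hypoxic libraries lay above all 5 normoxic ones, by 1.78 on the log2 scale when averaged over the cultures. The ratio was chosen after its values were seen and is given as a description, with no test.

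**Figure D2:**
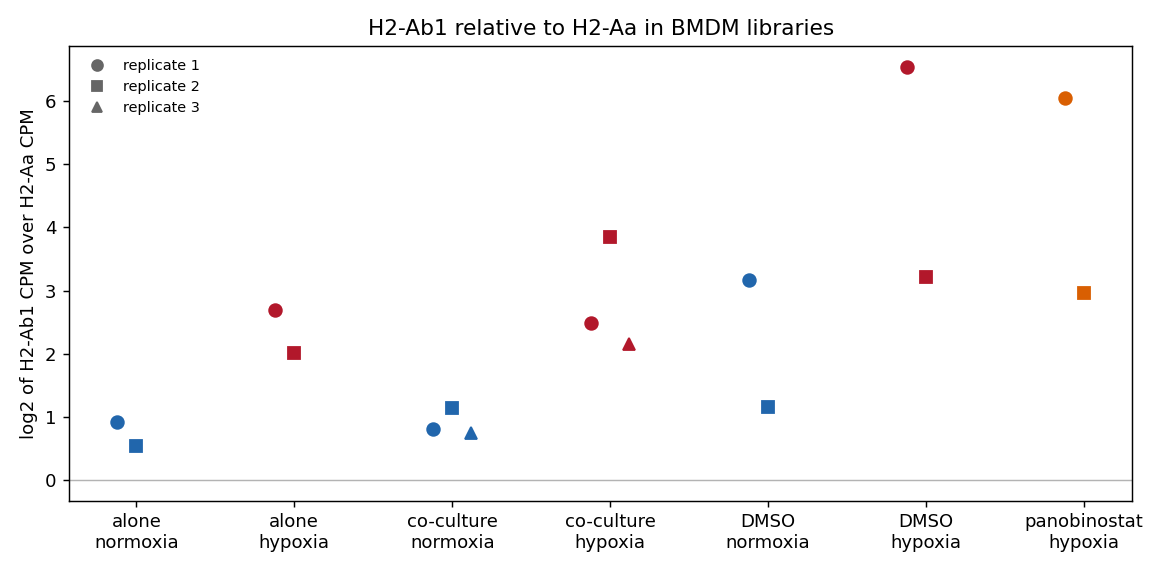
Log2 of the ratio of H2-Ab1 CPM to H2-Aa CPM in each of the 16 BMDM libraries, by group, with the replicate number as the symbol. In monoculture and co-culture the 5 hypoxic libraries lie above the 5 normoxic ones; in the panobinostat experiment replicate 1 lies above replicate 2 in all 3 groups.

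Cd74, the invariant chain, was 85.8 and 89.3 CPM in normoxia and 122.0 and 131.5 in hypoxia in BMDM alone. In co-culture Cd74 was 129.4, 150.5 and 147.6 CPM in normoxia and 199.5, 237.4 and 343.9 in hypoxia. Hypoxic libraries were above normoxic ones in both. The log2 fold change was 0.79 (SE 0.21, adjusted p = 0.021) alone and 0.98 (SE 0.17, adjusted p = 0.0015) in co-culture. The monoculture call was lost when any 1 of its 4 libraries was left out, with adjusted p of 0.074 to 0.16: normoxia replicate 1 gave 0.70, normoxia replicate 2 gave 0.74, hypoxia replicate 1 gave 0.84 and hypoxia replicate 2 gave 0.70 on the log2 scale.

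H2-DMa was 17.1 and 15.9 CPM in normoxia and 9.50 and 7.81 in hypoxia in BMDM alone, and 32.4, 25 and 26.7 against 18.1, 9.57 and 12.7 in co-culture. H2-DMb1 was 30.2 and 27.0 against 19.8 and 23.4 CPM alone, and 40.5, 35.3 and 42.3 against 25.4, 17.8 and 23.2 in co-culture. In plain CPM, hypoxic libraries were below normoxic ones for both chains in both cultures. With TMM scaling, which moved hypoxia up by 0.26 in BMDM alone on the log2 scale, the H2-DMb1 ranges there overlapped. The share of all genes separated in this way was not counted. In co-culture H2-DMa fell by 0.95 (SE 0.21, adjusted p = 0.0054) and H2-DMb1 fell by 0.72 (SE 0.15, adjusted p = 0.0039) on the log2 scale. In monoculture the values were -0.67 (SE 0.26, adjusted p = 0.085) for H2-DMa and -0.15 (SE 0.18, adjusted p = 0.61) for H2-DMb1, neither called. With only these groups in the fit H2-DMa was called there (-0.70, adjusted p = 0.0089). By shared sequence, 15.84% of 75-base words of H2-DMb1 are also in H2-DMb2 and 7.462% of those of H2-DMa are in the antisense gene Brd2, so their counts are uncertain by an amount that was not measured, since the strand setting of the counting is not given. For the same reason the exon bases that H2-DMa shares with Brd2 (360) and Ciita with Dexi (329) leave their counts uncertain.

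The hypoxia effect in co-culture minus that in monoculture was called for 0 of 7 members and for 0% of the 14806 genes in BMDM by edgeR, with 636 genes and 1 member (H2-DMb1, -0.57, SE 0.24) at an unadjusted p below 0.05. DESeq2 called 9 genes and no member. A different response of the H2-DM chains in the 2 cultures was thus not shown. The summed level of the 8 macrophage markers in BMDM alone was 14408 to 15827 CPM in normoxia and 10962 to 13508 in hypoxia, and 13691 to 17675 against 6262 to 13690 in co-culture. That of the 8 dendritic cell markers was 8.24 to 10.7 CPM in normoxia and 6.78 to 12.2 in hypoxia alone. In co-culture it was 34.0 to 37.7 against 21.0 to 26.1, and Cd209a and Xcr1 were at 0 in both cultures. In normoxia 2 of these 8 genes had at least 3 counts in a library alone and 4 in co-culture, and in hypoxia 3 in each. The summed level of the 5 B cell markers was 1.63 to 2.88 against 0.861 to 0.997 CPM alone and 1.82 to 3.46 against 0.547 to 1.56 in co-culture. The part of these 3 lists in the results was not tested.

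**Figure D3:**
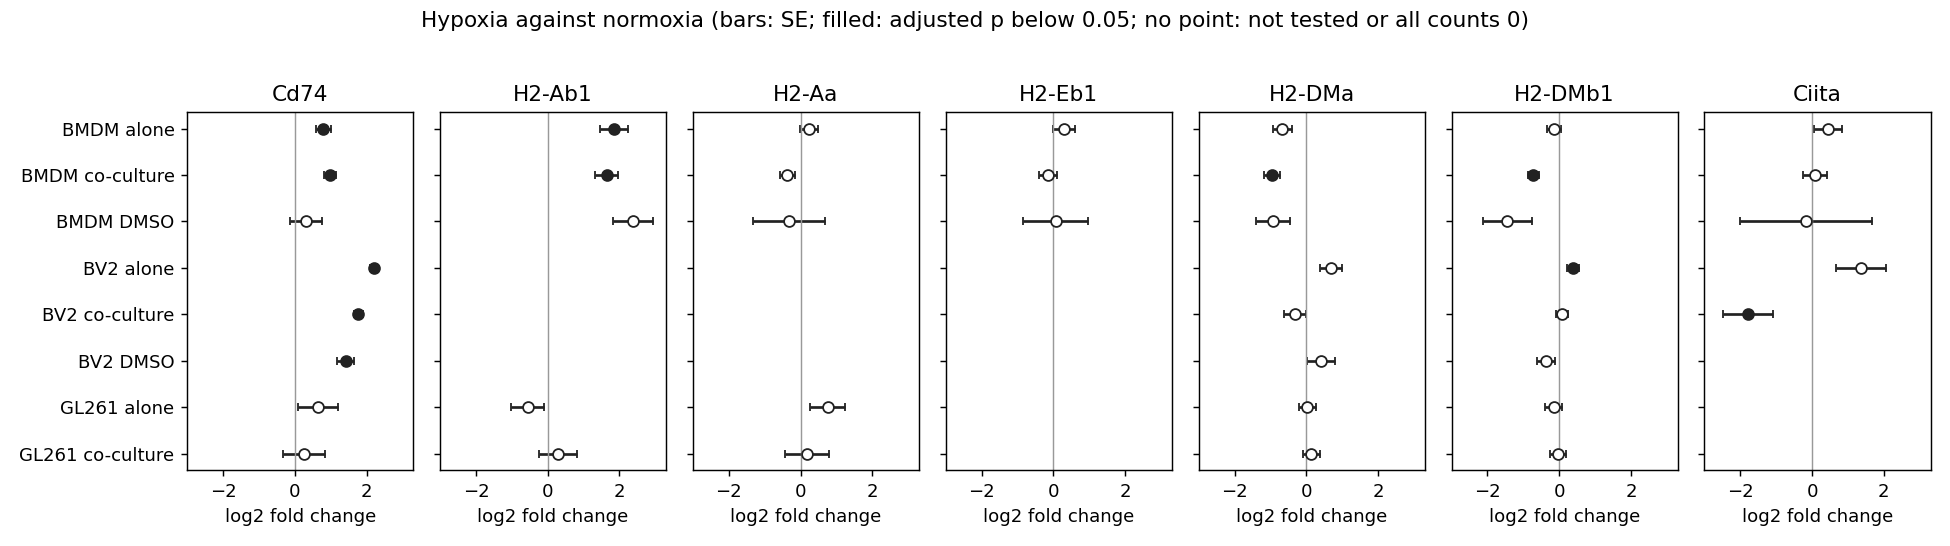
Log2 fold change of each member between hypoxia and normoxia in the 8 cultures where it was measured, from edgeR, with its SE. Filled points passed an adjusted p of 0.05 and a missing point was not tested or had only 0 counts; Cd74 is filled in BMDM alone and in co-culture and in all 3 BV2 settings, and H2-Ab1 in BMDM alone and in co-culture.

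In BV2, Cd74 was the member called in hypoxia in all 3 settings, alone, in co-culture and with DMSO. In the fit of the 8 BV2 libraries of the BV2 and GL261 table, only 4 members passed the filter on low counts (Cd74, Ciita, H2-DMa and H2-DMb1). The 3 peptide-binding chains did not, with at most 10 counts in any of these 8 libraries. Of the 4 members tested, hypoxia raised Cd74 and H2-DMb1 in BV2 alone, against 61.9% of the 14432 genes tested. It raised Cd74 and lowered Ciita in co-cultured BV2, against 67.3% of genes tested, and raised Cd74 alone of the 5 members tested in BV2 with DMSO (H2-Aa and H2-Eb1 with 0 counts in all 4 libraries), against 37.5% of 13294 genes. With so many genes called, the shares of members called are no higher than the background.

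Cd74 in BV2 alone was 125.8 and 112.7 CPM in normoxia and 548.7 and 516.4 in hypoxia. In co-cultured BV2, Cd74 was 181.0 and 184.3 CPM in normoxia and 533.0 and 617.7 in hypoxia. In BV2 with DMSO it was 214.4 and 166.6 CPM in normoxia and 376.5 and 559.3 in hypoxia. Hypoxic libraries were above normoxic ones in all 3 settings. The log2 fold changes of Cd74 were 2.21 (SE 0.12, adjusted p = 5.5e-10), 1.77 (SE 0.12, adjusted p = 4.2e-09) and 1.42 (SE 0.24, adjusted p = 0.0019), and each was called under every alternative run. In the same libraries the summed level of the 8 macrophage markers was 1564 to 1576 CPM in normoxia and 2319 to 2447 in hypoxia alone, 1814 to 2074 against 2128 to 2204 in co-culture, and 1656 to 2711 against 1944 to 2168 with DMSO. That of the 6 microglia markers was 287.2 to 288.5 against 493.6 to 494.0 CPM alone, 265.5 to 311.9 against 372.6 to 401.3 in co-culture, and 249.1 to 422.9 against 260.0 to 313.3 with DMSO. Both lists were thus higher in hypoxia alone and in co-culture and overlapped with DMSO, and their part in the Cd74 result was not tested.

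H2-DMb1 in BV2 alone was 14.4 and 12.1 CPM in normoxia and 18.3 and 15.1 in hypoxia, a log2 fold change of 0.38 (SE 0.16, adjusted p = 0.046). This call was lost without normoxia replicate 2 (0.25, adjusted p = 0.29) and without hypoxia replicate 1 (0.25, adjusted p = 0.27), and with DESeq2 (0.41, adjusted p = 0.059). H2-DMa was 1.36 and 1.04 CPM in normoxia and 1.89 and 1.88 in hypoxia in BV2 alone (0.69, SE 0.31, adjusted p = 0.066). In co-cultured BV2 neither was called: H2-DMa was 2.51 and 2.47 against 1.67 and 2.03 CPM, and H2-DMb1 was 18.4 and 14.9 against 16.9 and 15.5.

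Ciita stood near the limit of detection in BV2. Its counts were 8 and 3 in normoxia and 13 and 9 in hypoxia in BV2 alone (1.37, SE 0.70, adjusted p = 0.10). In co-cultured BV2 the counts were 20 and 9 in normoxia and 7 and 2 in hypoxia, or 1.48 and 0.49 against 0.38 and 0.11 CPM, and Ciita fell by 1.78 (SE 0.69, adjusted p = 0.033) on the log2 scale. The call was lost without normoxia replicate 1 (-0.90, adjusted p = 0.38), without hypoxia replicate 2 (-1.25, adjusted p = 0.20) and with DESeq2 (-1.84, adjusted p = 0.077). For the hypoxia effect in co-culture minus that in monoculture, 0 of 4 members were called by edgeR against 2.19% of genes tested. Cd74, Ciita and H2-DMa had an unadjusted p below 0.05 there, Ciita with -3.15 (SE 0.98, adjusted p = 0.096), and DESeq2 called no member.

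GL261 glioma cells had H2-DMb1, H2-DMa and a low level of H2-Aa, and no member was called in hypoxia. H2-Aa was 5.94 and 2.72 CPM in normoxia and 8.99 and 5.01 in hypoxia in GL261 alone (0.75, SE 0.48, adjusted p = 0.23). H2-DMa was 9.20 and 6.18 against 7.38 and 7.85 CPM, and H2-DMb1 was 15.5 and 11 against 12 and 11 CPM. H2-Ab1 was 0.88 and 1.13 against 0.55 and 0.78 CPM, Cd74 was 2.69 and 0.68 against 3.01 and 2.12 CPM, and Ciita and H2-Eb1 had at most 4 and 1 counts in any GL261 library. By edgeR, 0 of 5 members were called in GL261 alone against 44.6% of the 15189 genes tested, and 0 of 5 in co-culture against 52.4%. No member had an unadjusted p below 0.05 in either, and DESeq2 called none. Without normoxia replicate 1, which had the higher Cd74, Cd74 was called higher in GL261 alone (2.02, adjusted p = 0.041).

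The difference in the hypoxia effect between BV2 and GL261 grown alone was tested directly in a fit of both lines. Cd74 rose by 1.65 (SE 0.50, adjusted p = 0.014) more in BV2 than in GL261 on the log2 scale, the only 1 of 6 members called, against 37.4% of the 16882 genes tested and a median of 0.15 over them. Without GL261 normoxia replicate 1 the value was 0.21 (adjusted p = 0.93), without GL261 hypoxia replicate 2 it was 1.29 (adjusted p = 0.052), and with DESeq2 it was 1.67 (adjusted p = 0.074). The GL261 libraries had 12 to 82 Cd74 counts. H2-DMb1 (0.64, SE 0.29, adjusted p = 0.095) was called without GL261 normoxia replicate 2 (0.79, adjusted p = 0.049).

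The next comparison asked what direct contact with glioma cells did to the same genes. In normoxic BMDM, 6 of the 7 members were higher in every co-culture library than in every monoculture library and Ciita was lower, but edgeR called 0 of 7, against 1.64% of genes tested. Of the 14806 genes tested, 16.3% were likewise higher in every co-culture library and 19.1% lower in every one. By size, Cd74 was at 0.74 (SE 0.20, adjusted p = 0.097), H2-DMa at 0.80 (SE 0.24, adjusted p = 0.15), H2-Eb1 at 0.83 (SE 0.29, adjusted p = 0.23) and H2-DMb1 at 0.50 (SE 0.17, adjusted p = 0.22) on the log2 scale. H2-Aa was at 0.60 (SE 0.23, adjusted p = 0.29), H2-Ab1 at 0.79 (SE 0.36, adjusted p = 0.39) and Ciita at -0.22 (SE 0.36, adjusted p = 0.85). All except Ciita had an unadjusted p below 0.05, DESeq2 called Cd74 (0.73, adjusted p = 0.019) and H2-DMa (0.79, adjusted p = 0.045), as did edgeR with only these groups in the fit (adjusted p = 0.035 and 0.048), and the median of all genes tested was 0.02. In the same libraries the summed level of 8 dendritic cell markers was 8.24 to 10.7 CPM alone and 34.0 to 37.7 in co-culture. Of these 8 genes, 2 had at least 3 counts in a library alone and 4 in co-culture, with Cd209a and Xcr1 at 0 in both. The summed level of 5 B cell markers was 1.63 to 2.88 CPM alone and 1.82 to 3.46 in co-culture. The part of either list in the result was not tested.

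In hypoxic BMDM, contact raised Cd74, and 1 of 7 members was called against 7.11% of genes tested. From the values above, the 3 co-culture libraries (199.5 to 343.9 CPM) lay above both monoculture libraries (122.0 and 131.5), a log2 fold change of 0.93 (SE 0.20, adjusted p = 0.021). The call was lost without monoculture replicate 1 (0.86, adjusted p = 0.18) or replicate 2 (1.00, adjusted p = 0.16), with only the groups compared in the fit (0.96, adjusted p = 0.081), and with genes higher in GL261 left out (1.03, adjusted p = 0.051). GL261 RNA made up 2.43% ± 1.21 of co-cultured BMDM in normoxia and 3.74% ± 2.32 in hypoxia (SD, n = 3). At the mean share in hypoxia and the level in GL261 alone, this would be 0.0958 CPM of Cd74, against 260.3 measured. The largest such value was 0.429 CPM, for H2-DMb1, against 22.1 measured. In a library the share reached 6.28%, and the levels of GL261 in contact with BMDM were not measured. The part of GL261 RNA in the result was not tested further. The other 6 members were not called, between -0.59 for Ciita and 0.59 for H2-Ab1. The 8 dendritic cell markers summed to 6.78 to 12.2 CPM alone and 21.0 to 26.1 in co-culture. In each culture 3 of them had at least 3 counts in a library, with Cd209a and Xcr1 at 0 in both. The part of this list in the result was not tested.

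In BV2, contact raised Cd74 and H2-DMa in normoxia, 2 of 4 members tested against 14.9% of genes, and called 0 of 4 in hypoxia, against 15.7%. Cd74 was 125.8 and 112.7 CPM alone and 181.0 and 184.3 in co-culture (0.56, SE 0.12, adjusted p = 0.0069). H2-DMa was 1.36 and 1.04 CPM alone and 2.51 and 2.47 in co-culture (0.99, SE 0.31, adjusted p = 0.041). The Cd74 call was lost without monoculture replicate 2 (0.46, adjusted p = 0.11) and without co-culture replicate 2 (0.50, adjusted p = 0.058). That of H2-DMa was lost with DESeq2 (1.02, adjusted p = 0.11), without monoculture replicate 1 (1.20, adjusted p = 0.066) or replicate 2 (0.79, adjusted p = 0.28), and without co-culture replicate 1 (1.00, adjusted p = 0.13) or replicate 2 (0.95, adjusted p = 0.16). Ciita, at 8 and 3 counts alone and 20 and 9 in co-culture, was not called (1.88, SE 0.66, adjusted p = 0.069), but was without co-culture replicate 2 (2.48, adjusted p = 0.037). In hypoxia the Cd74 difference was 0.12 (SE 0.12, adjusted p = 0.55), no member had an unadjusted p below 0.05 and DESeq2 called none. The GL261 share was 0.760% ± 0.271 in normoxia and 2.22% ± 0.202 in hypoxia (SD, n = 2). In normoxia the summed macrophage markers were 1564 to 1576 CPM alone and 1814 to 2074 in co-culture. The 8 dendritic cell markers summed to 32.7 to 39.4 and 49.0 to 63.1 CPM. In each culture 5 of these 8 had at least 3 counts in a library, with Cd209a at 0 in both. The part of either list in these calls was not tested.

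In GL261, contact with BV2 called no member. H2-Aa was 5.94 and 2.72 CPM alone and 1.95 and 1.11 in co-culture in normoxia, and 8.99 and 5.01 against 2.49 and 0.83 in hypoxia. Co-culture libraries lay below monoculture ones at both oxygen levels. The log2 fold changes were -1.47 (SE 0.56, adjusted p = 0.48) and -2.04 (SE 0.54, adjusted p = 0.096). By edgeR 0 of 5 members were called in normoxia against 0.514% of genes tested and 0 of 5 in hypoxia against 1.39%. H2-Aa had an unadjusted p below 0.05 in each, and DESeq2 called it in hypoxia (-2.02, adjusted p = 0.0058). The hypoxia effect in co-culture minus monoculture called 0 of 5 members and 0% of genes, with 1354 genes and no member at an unadjusted p below 0.05, and DESeq2 called 47 genes and no member. BV2 RNA was 0.773% ± 0.202 of co-cultured GL261 in normoxia and 0.237% ± 0.0266 in hypoxia, which at the BV2 level would be 0.922 and 1.26 CPM of Cd74. Cd74 itself was 2.10 ± 0.701 and 2.41 ± 1.29 CPM there (SD, n = 2), and the part of BV2 RNA in it was not tested further.

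Panobinostat was then compared with DMSO in hypoxia. In BV2 it brought H2-Aa and H2-Eb1 from 0 counts to a low level and raised H2-DMa 7.55-fold in plain CPM, 3 of 5 members tested against 14.6% of the 13294 genes. H2-Aa and H2-Eb1 passed the filter on low counts only through the panobinostat libraries, and H2-Ab1 and Ciita did not pass it, so nothing is read from that share. H2-Ab1, the partner of H2-Aa, and Ciita stayed at or near the limit of detection.

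H2-Aa had 0 counts in all 4 BV2 libraries with DMSO, in normoxia and hypoxia, and 34 and 38 counts with panobinostat, or 2.69 and 2.88 CPM. Against 3 counts per library in the hypoxic DMSO group it was at least 12.3-fold higher (adjusted p = 0.0043). H2-Eb1 had 0 counts in the same 4 libraries and 21 and 25 with panobinostat, or 1.66 and 1.89 CPM, at least 7.88-fold higher (adjusted p = 0.0076). Both genes passed the filter on low counts only through the panobinostat libraries, so their adjusted p are given as a description. The promoters of both are those printed above.

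H2-DMa in BV2 was 2.10 and 1.22 CPM with DMSO in normoxia, 1.60 and 2.41 in hypoxia, and 15.2 and 15.1 with panobinostat. Its log2 fold change was 2.82 (SE 0.36, adjusted p = 0.0025), with the uncertainty from Brd2 on the other strand given above. The H2-DMa call held in each alternative, with log2 fold changes of 2.62 to 3.03. Those of H2-Aa and H2-Eb1 held where the gene was tested. Both passed the filter on low counts only through the panobinostat libraries, so this is no further support for them. H2-Aa and H2-Eb1 were not tested where a mean of at least 1 CPM was required.

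Cd74 in BV2 was 376.5 and 559.3 CPM with DMSO in hypoxia and 657.1 and 748.2 with panobinostat (0.49, SE 0.24, adjusted p = 0.18). H2-DMb1 was 10.9 and 14.6 against 20.3 and 18.6 CPM (0.51, SE 0.26, adjusted p = 0.21). Panobinostat libraries were above the DMSO ones for both, without a call. H2-Ab1 had 3 and 0 counts with DMSO and 0 and 6 with panobinostat. Ciita had 2 and 3 counts with DMSO and 4 and 2 with panobinostat, and neither gene was tested.

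**Figure D4:**
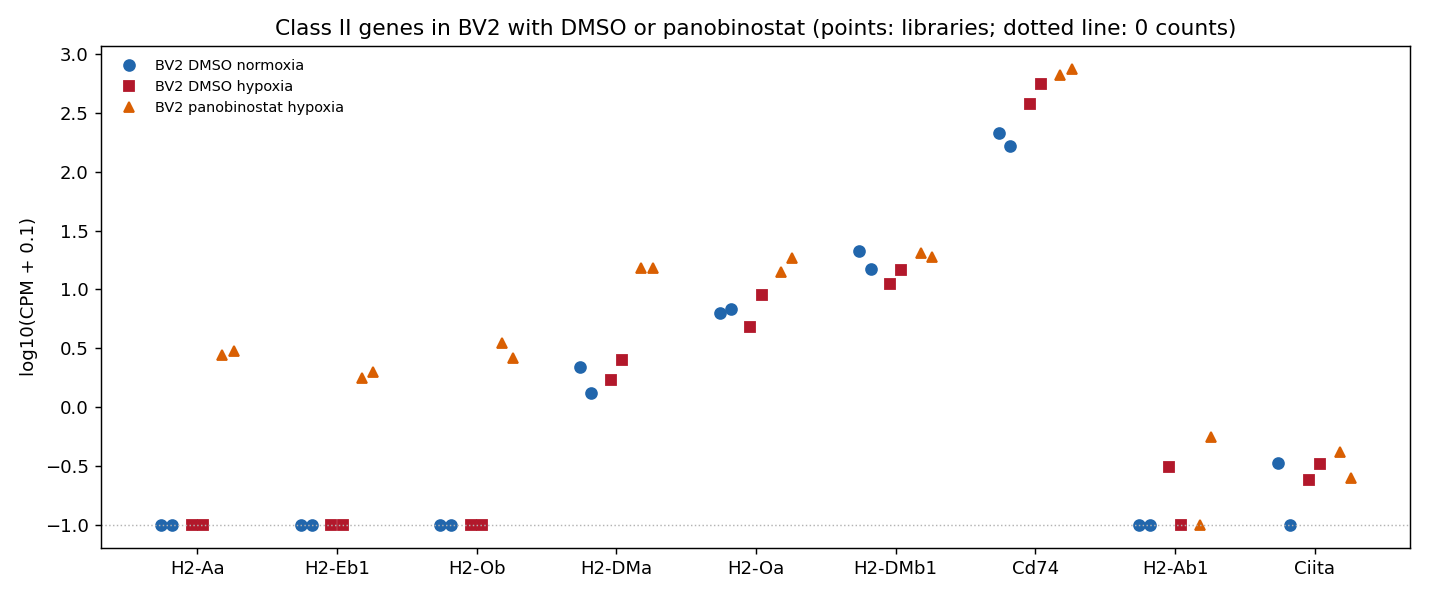
Level of the 7 members and of H2-Oa and H2-Ob in BV2 with DMSO in normoxia, DMSO in hypoxia and panobinostat in hypoxia, as log10 of CPM plus 0.1. Points are libraries (n = 2 a group) and the dotted line is 0 counts; H2-Aa, H2-Eb1 and H2-Ob leave that line only with panobinostat, while H2-Ab1 and Ciita stay near it.

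Several marker lists moved with the drug in BV2, but that of the 6 microglia markers overlapped. It summed to 260.0 to 313.3 CPM with DMSO in hypoxia and 298.9 to 349.4 with panobinostat. The summed level of the 8 macrophage markers was 1944 to 2168 CPM with DMSO in hypoxia and 1164 to 1386 with panobinostat, that of the 8 dendritic cell markers 14.8 to 19.5 and 22.3 to 35.4, and that of the 8 glioma markers 0.975 to 1.5 and 6.01 to 8.48. Of the 8 dendritic cell markers, 4 had at least 3 counts in a library with DMSO in hypoxia and 4 with panobinostat, and Cd209a and Siglech were at 0. The 5 B cell markers summed to at most 0.379 CPM, with Cd79a, Ms4a1 and Pax5 at 0 with panobinostat. The part of any of these lists in the result was not tested.

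In BMDM the panobinostat experiment varied more between replicates (biological coefficient of variation 0.381, against 0.222 in the co-culture experiment), and edgeR called 0 of 7 members for hypoxia with DMSO, against 0.483% of the 14914 genes tested, and 0 of 7 for the drug, against 0%. For hypoxia 1 member, H2-Ab1, had an unadjusted p below 0.05 and was called by DESeq2. For the drug 3868 genes and 1 member, H2-DMa, had an unadjusted p below 0.05, and DESeq2 called 2221 genes and 1 member. Same-numbered BMDM libraries of this experiment deviated together (mean correlation 0.446), so the numbers were taken to pair them, which the labels do not state. Values with the replicate as a block are therefore given beside those without for the members whose call the block changed. All other values are from fits without the block. Replicates 1 and 2 differed in every group: the summed macrophage markers were 26568 and 17471 CPM with DMSO in normoxia, 2684 and 9999 in hypoxia, and 970 and 4860 with panobinostat. The 8 dendritic cell markers summed to 3.19 and 28.0 CPM, 3.87 and 11.8, and 18.5 and 29.3 in the same order. In that order 3, 3 and 4 of them had at least 3 counts in a library, and Cd209a and Siglech were at 0. The part of either list in the values of the members was not tested.

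Ciita separated the replicates more than the treatments: it had 2 and 58 counts with DMSO in normoxia, 3 and 30 in hypoxia, and 0 and 19 with panobinostat. In CPM these were 0.14 and 3.65, 0.19 and 3.11, and 0 and 1.55. Replicate 1 was at or below the limit of detection in each group. H2-Aa was likewise lower in replicate 1, at 2.98 and 7.12, 1.59 and 6.12, and 2.13 and 13.4 CPM, and so was H2-Eb1, at 2.01 and 5.73, 1.59 and 6.12, and 3.38 and 12.3. H2-Ab1 was higher in replicate 1, at 26.8 and 15.9 CPM with DMSO in normoxia, 148.4 and 57.0 in hypoxia, and 141.8 and 104.1 with panobinostat. The ratio of H2-Ab1 to H2-Aa was accordingly 9.0 and 2.23, 93.5 and 9.31, and 66.5 and 7.77. Within each replicate number it was higher in hypoxia than in normoxia.

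H2-Ab1 was not called in hypoxia with DMSO without the block (2.37 on the log2 scale, SE 0.56, adjusted p = 0.089). With the replicate as a block it was called higher (2.28, adjusted p = 0.018). Without the block it was called with DESeq2 (2.37, adjusted p = 0.0017) and without hypoxia replicate 2 (2.91, adjusted p = 0.043). H2-DMb1 was 16.0 and 22.5 CPM in normoxia and 3.11 and 10.4 in hypoxia. It was not called without the block (-1.44, SE 0.68, adjusted p = 0.24), and with the block it fell by 1.64 (adjusted p = 0.043). Cd74 was 86.0 and 71.4 CPM in normoxia and 87.0 and 95.3 in hypoxia, and its log2 fold change was 0.30 (SE 0.45, adjusted p = 0.69).

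With panobinostat H2-DMa was 14.5 and 22.4 CPM in BMDM, against 2.67 and 6.33 with DMSO in hypoxia and 8.32 and 9.52 in normoxia. It was not called without the block (1.76, SE 0.48, adjusted p = 0.097), and with the block it rose by 1.81 (adjusted p = 0.033). H2-DMa was thus the member with the lowest adjusted p for the drug in BV2 and in BMDM. Cd74 was 58.3 and 152.2 CPM with the drug (-0.09, SE 0.45, adjusted p = 0.92, with 1.16-fold in plain CPM), on both sides of the DMSO values. H2-DMb1 was 9.93 and 25.7 CPM with the drug (1.13, SE 0.67, adjusted p = 0.34).

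The BV2 and BMDM effects were compared in a joint fit of the panobinostat experiment. The drug effect in BMDM minus that in BV2 called 0 of 7 members, against 0.0251% of the 15955 genes tested, although H2-Aa (-7.38, SE 2.31, adjusted p = 0.33) and H2-Eb1 (-6.72, SE 2.14, adjusted p = 0.33) had an unadjusted p below 0.05. Those fitted values rest on DMSO libraries of BV2 with 0 counts and are no measure of size. The hypoxia effect with DMSO in BMDM minus that in BV2 called 0 of 7, against 0.664%, with no member at an unadjusted p below 0.05. DESeq2 called no member in either. Cd74 stood at -1.18 (SE 0.53, adjusted p = 0.27) there and H2-DMa at -1.39 (SE 0.63, adjusted p = 0.27).

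Levels also differed between cell types. With DMSO in normoxia BMDM exceeded BV2 in H2-Ab1 by at least 91.5-fold, in H2-Aa by at least 21.6-fold and in H2-Eb1 by at least 16.6-fold, each against 3 counts per BV2 library, where all were at 0 (adjusted p = 2.9e-04, 0.0043 and 0.0034). H2-DMa was higher by 2.69 (SE 0.45, adjusted p = 0.0011) on the log2 scale. These were 4 of 7 members, against 44.2% of genes tested, whose median was 0.11. With 0 counts in BV2 here, the peptide-binding chains passed the filter on low counts only through other groups of the fit. Their adjusted p are therefore given as a description, and nothing is read from that share. Cd74 was 86.0 and 71.4 CPM in BMDM and 214.4 and 166.6 in BV2 (-1.0, SE 0.38, adjusted p = 0.055), called with the replicate as a block (adjusted p = 0.049) and with DESeq2 (adjusted p = 0.027). Cell type and medium changed together here and cannot be told apart.

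Between the lines grown alone, BV2 exceeded GL261 in Cd74 by 6.26 (SE 0.34, adjusted p = 7.2e-12) in normoxia and 7.91 (SE 0.34, adjusted p = 2.0e-13) in hypoxia on the log2 scale, while H2-DMa was lower in BV2, at -2.52 (SE 0.27, adjusted p = 1.1e-07) and -1.76 (SE 0.26, adjusted p = 6.4e-06). H2-Aa was called lower in BV2, with 1 and 1 counts against 115 and 48 in normoxia and 3 and 2 against 245 and 90 in hypoxia. H2-Ab1 was too, with 1 and 0 counts against 17 and 20, and 0 and 0 against 15 and 14, at least 3.88-fold lower in hypoxia. H2-DMb1 was called in hypoxia only (0.79, SE 0.20, adjusted p = 0.0018). Ciita was called higher in BV2 in both, but with 8 and 3 counts against 0 and 0 in normoxia and 13 and 9 against 3 and 0 in hypoxia. The Ciita call was lost in normoxia without BV2 replicate 1 (adjusted p = 0.12), GL261 replicate 1 (adjusted p = 0.090) or GL261 replicate 2 (adjusted p = 0.081), and in hypoxia without BV2 replicate 1 (adjusted p = 0.052) or GL261 replicate 2 (adjusted p = 0.055). In all, 5 of 6 members were called in normoxia, against 73.2% of genes, and 6 of 6 in hypoxia, against 76.6%. The medians of all genes were -0.12 and -0.14. H2-Aa and H2-Ab1 passed the filter on low counts only through GL261 libraries and Ciita only through BV2 libraries, so nothing is read from these shares.

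The genes around the set were followed in 4 lists: 10 other class II and processing genes, 7 class II promoter factors, 11 factors upstream of Ciita and 6 co-stimulation genes. Among the other class II genes, panobinostat in BV2 raised 3 of the 7 tested and lowered none, with a median of 1.16 beside -0.01 over all genes and 14.6% of genes called. H2-Ob passed the filter only through the drug libraries, so the count is no support. H2-Ob, a chain of the H2-DM inhibitor H2-O, went from 0 counts to 3.40 and 2.50 CPM (adjusted p = 0.0046). H2-Oa, its partner chain, was 4.74 and 8.88 CPM with DMSO and 14.1 and 18.3 with the drug (1.16, SE 0.31, adjusted p = 0.035). Ifi30, a lysosomal thiol reductase that unfolds antigens, rose by 1.42 (SE 0.26, adjusted p = 0.0090). Ctss, the cathepsin that cuts Cd74, was not called (0.07, SE 0.24, adjusted p = 0.88).

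The factors that act on the class II promoters were not called with the drug in BV2: 0 of 7 by edgeR and 0 by DESeq2, with 3 at an unadjusted p below 0.05 by edgeR and a median of -0.17. Rfx5, a subunit of the RFX complex, was at 0.23 (SE 0.34, adjusted p = 0.70). Of the 11 factors upstream of Ciita, 1 rose and 2 fell, where 14.6% of all genes tested were called. Irf8, a myeloid factor of the interferon family, fell by 1.07 (SE 0.23, adjusted p = 0.015) and Spi1, the myeloid factor PU.1, fell by 1.08 (SE 0.22, adjusted p = 0.014). Prdm1, a known repressor of Ciita, rose by 2.2 (SE 0.39, adjusted p = 0.0092), and Irf1 was at 0.67 (SE 0.27, adjusted p = 0.12). Of the co-stimulation genes Cd40 rose by 2.36 (SE 0.42, adjusted p = 0.0087), 1 of 6.

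In BV2 alone in hypoxia, the median was -0.51 for the promoter factors, 0.12 for the upstream factors and 0.32 for the other class II genes, beside 0 over all genes. There all 7 promoter factors were called, 3 higher and 4 lower, where 61.9% of all genes were called, with Rfx5 at 1.07 (SE 0.13, adjusted p = 3.7e-06) and Rfxank, another RFX subunit, at 1.24 (SE 0.14, adjusted p = 1.6e-06). Among the 11 upstream factors 5 rose and 2 fell, a share near that background: Prdm1 rose by 3.46 (SE 0.28, adjusted p = 3.4e-08), Irf8 by 1.04 (SE 0.11, adjusted p = 4.4e-07) and Irf1 by 0.48 (SE 0.13, adjusted p = 0.0036), while Spi1 was at -0.26 (SE 0.12, adjusted p = 0.083). Of 6 other class II and processing genes tested 3 rose and 1 fell, with H2-DMb2, the paralog of H2-DMb1, at 2.23 (SE 0.52, adjusted p = 0.0015) and Ctss at 0.02 (SE 0.12, adjusted p = 0.93). In co-cultured BV2 Ifi30 fell by 2.59 (SE 0.12, adjusted p = 9.0e-11).

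In BMDM alone, the same medians were -0.07, -0.34 and -0.22, beside 0.03 over all genes. There hypoxia called 0 of 7 promoter factors and 0 of 11 upstream factors by edgeR, where 23.9% of all genes tested were called. At an unadjusted p below 0.05 there were 1 and 5, and DESeq2 called 1 and 2. Rfx5 was at -0.53 (SE 0.32, adjusted p = 0.25), Irf1 at -0.49 (SE 0.21, adjusted p = 0.11), Irf8 at 0.41 (SE 0.21, adjusted p = 0.18) and Spi1 at -0.34 (SE 0.15, adjusted p = 0.13). Of 8 other class II and processing genes tested none rose and 2 fell, against the same 23.9%. March1, the ubiquitin ligase that removes class II molecules and Cd86 from the surface, fell by 1.34 (SE 0.31, adjusted p = 0.012) alone. In co-culture March1 fell by 2.04 (SE 0.27, adjusted p = 2.6e-04), and 3 of 8 fell there, against 34.8% of all genes called. Cd86, a co-stimulation ligand, rose by 3.47 (SE 0.26, adjusted p = 2.0e-05) alone and 3.52 (SE 0.21, adjusted p = 3.7e-06) in co-culture. Ctss was at 0.53 (SE 0.23, adjusted p = 0.13) alone and -0.07 (SE 0.19, adjusted p = 0.80) in co-culture. In BMDM in normoxia, contact with GL261 called only Cd80 of the 4 lists (1.41, SE 0.27, adjusted p = 0.029), against 1.64% of genes tested.

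Over the 10 BMDM libraries of the co-culture experiment, the genes whose log2 CPM was most like that of Cd74 were Mmp11 (Pearson r = 0.988), Casp4 (0.982), Spic (0.971), Cacnb1 (0.970) and Slc4a3 (0.970). Cd74 had r = 0.831 with H2-Ab1, 0.496 with H2-Eb1 and 0.255 with H2-Aa. The genes most like Ciita were Mios (0.928), Gm14548 (0.884), Sptb (0.884), Pira2 (0.877) and Mitf (0.875), and Ciita had r between -0.507 (H2-DMa) and 0.182 (H2-Aa) with the other members. None of the other members was among the 5 genes most like Cd74 or Ciita. These libraries share 4 treatment groups, so the values are a description. Over the 6 BMDM libraries of the panobinostat experiment, the genes most like Cd74 were Lca5l (0.986) and As3mt (0.963), and those most like Ciita were Itgbl1 (0.989) and Pcgf3 (0.987), with r = 0.832 between Ciita and H2-Aa and -0.496 between Ciita and H2-Ab1.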

How the data were processed

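RNA-seq libraries were made from poly(A) RNA of glyoxal-fixed cells with a stranded kit and read as paired ends, per the labels' protocols. The deposited values are raw counts per Ensembl gene, made by the authors. Per the submitters' processing notes, which give no role or order, the tools included Trimmomatic 0.36, STAR 2.6, Picard 2.17.1, SAMtools, HTSeq 0.9.1 and deepTools, with the build mm10; strand setting and annotation are not given in the sources used here. How co-cultured cells were separated is likewise not given.

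Counts were tested with edgeR 4.0.16 (R 4.3.3): TMM scaling, filterByExpr (minimum count 10, total 15), a quasi-likelihood F test and Benjamini-Hochberg adjustment over all genes tested, with a threshold of 0.05. One fit was made for each cell type and experiment, and joint fits for differences between cell types. Members tested were 4 in the BV2 fit, 5 in GL261, 7 in BMDM, 5 and 7 in the panobinostat fits, and 6 and 7 in the joint fits. The steps were tested on simulated counts, unpaired and with 1 spread between libraries for every fit. The biological coefficient of variation of the data ran from 0.0958 in the BV2 fit to 0.381 in the BMDM panobinostat fit. The simulation therefore does not speak for the fits with the largest spread or for paired libraries. Plain CPM is a gene's count over the library total. A fold against a group at 0 was taken against 3 counts per library; limits of this kind cover counting error only. Exon lengths came from GENCODE M21, which may not be the authors' annotation. No 2 replicate libraries were identical. Alternatives were DESeq2 1.42.0, its size factors, no filter, a mean of at least 1 CPM, the replicate number as a block, only the groups compared, each library left out and, chosen after seeing the data, a fit without genes higher in the partner. The 7 members were named by rule, with values printed for those each comparison turns on, and genes most like Cd74 and Ciita were those with the highest Pearson r. The members and lists were chosen with earlier results of these data known. The values of 1 listed gene are not reported here.

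Same-numbered libraries deviated together in the panobinostat experiment, with a mean correlation of 0.302 (0.154 to 0.389) in BV2 and 0.446 (0.336 to 0.593) in BMDM, and in co-cultured BMDM (0.455, 0.244 and 0.407), so the numbers were taken to pair those libraries. This comes from the data, since the labels give only the numbers. Values in the text are from fits without the block unless it is named, and the block was run as an alternative. With it the member calls in co-cultured BMDM in hypoxia and in BV2 of the panobinostat experiment were kept.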

Additional observations from a re-analysis of the deposited data

Results flagged for a closer look

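The response of Cd74 to hypoxia in cells grown alone differed between BV2 and GL261 in a test of the difference itself: it was greater in BV2 by 1.65 on the log2 scale (SE 0.50, edgeR adjusted p = 0.014). In BV2 all hypoxic libraries were above the normoxic ones, whereas in GL261 the ranges overlapped at 0.68 to 3.01 CPM. The difference was 0.21 (adjusted p = 0.93) without GL261 normoxia replicate 1 and 1.29 (adjusted p = 0.052) without GL261 hypoxia replicate 2, and DESeq2 gave 1.67 (adjusted p = 0.074).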

How the results depend on the processing

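No called member changed direction in any alternative. In every alternative that tested them, libraries left out included, the calls of Cd74 in BV2 hypoxia (alone, in co-culture and with DMSO), of all 4 genes in co-cultured BMDM in hypoxia, and of H2-Aa, H2-Eb1 and H2-DMa in BV2 with panobinostat were kept. H2-Aa and H2-Eb1 in BV2 passed the filter on low counts only through the panobinostat libraries, so keeping their calls is no further support. Counts of members called moved by over 1.5 times as follows, and apart from fewer samples or another set of genes tested the cause was not tested. For hypoxia in BV2 alone 2 became 1 with DESeq2, and in co-cultured BV2 2 became 1 with DESeq2, with a mean of at least 1 CPM and with only the groups compared. For contact in BV2 in normoxia 2 became 1 with DESeq2 and without genes higher in the partner. The BV2 difference between hypoxia effects went from 0 to 2 without a filter. In GL261 0 became 1, always H2-Aa, without a filter for hypoxia alone, for contact in normoxia and for contact in hypoxia, the last also with DESeq2. For contact in BMDM in normoxia 0 became 2 with DESeq2, 4 without a filter and 2 with only the groups compared. In hypoxia 1 became 2 without a filter and 0 with only the groups compared and without genes higher in the partner. For panobinostat in BV2 3 became 1 with a mean of at least 1 CPM. In BMDM with DMSO in hypoxia 0 became 1 with DESeq2 and 2 without a filter, and with panobinostat 0 became 1 with each. The hypoxia effect of BV2 minus GL261 went from 1 to 0 with DESeq2. BV2 minus GL261 in normoxia went from 5 to 3 with a mean of at least 1 CPM, and the panobinostat effect of BMDM minus BV2 from 0 to 2 without a filter.

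With the replicate block the count went to 1 for the BV2 difference between hypoxia effects and for GL261 in hypoxia alone, in contact in normoxia and in contact in hypoxia, to 2 for BMDM with DMSO in hypoxia, to 1 for BMDM with panobinostat, and to 2 for the hypoxia effect of BV2 minus GL261. Outside the panobinostat experiment and co-cultured BMDM the libraries were not taken as paired: same-number correlations averaged 0.0335 in BV2 and 0.180 in GL261. Between hypoxic GL261 alone and in co-culture the correlation was 0.369, above some of the pairs taken as paired. Whether the numbers pair those GL261 libraries is thus not settled. In the libraries not taken as paired, the block also called Ciita in BV2 hypoxia alone (adjusted p = 0.046) and in contact in normoxia (adjusted p = 0.031), and H2-DMa in BMDM hypoxia alone (adjusted p = 0.033). It changed no other count by over 1.5 times. A fit of only the groups compared was not run for differences between hypoxia effects within a cell type, which use all its groups.

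Leaving out 1 library gave 1 to 2 members called for hypoxia in BV2 alone, 1 to 2 in co-cultured BV2, 0 to 1 for contact in BV2 in normoxia, 0 to 1 for GL261 hypoxia alone, 0 to 1 for BMDM hypoxia alone, 0 to 1 for contact in BMDM in hypoxia, 0 to 1 for BMDM with DMSO in hypoxia, and 0 to 2 for the hypoxia effect of BV2 minus GL261. Where a group was left with 1 library, that library was assumed to vary like the others.

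Over all genes, counts also moved by over 1.5 times between settings, given as the count reported and the range over every alternative. Contact in BV2 in normoxia called 2152 genes (from 451 to 2519), contact in BV2 in hypoxia called 2266 genes (from 1385 to 3183), the BV2 difference between hypoxia effects called 316 genes (from 59 to 981), contact in GL261 in normoxia called 78 genes (from 1 to 361). Contact in GL261 in hypoxia called 211 genes (from 20 to 737), the GL261 difference between hypoxia effects called 0 genes (from 0 to 73), hypoxia in BMDM alone called 3542 genes (from 1288 to 6289), contact in BMDM in normoxia called 243 genes (from 3 to 1062). Contact in BMDM in hypoxia called 1053 genes (from 4 to 2141), the BMDM difference between hypoxia effects called 0 genes (from 0 to 128), hypoxia in BV2 with DMSO called 4980 genes (from 2920 to 6511), panobinostat in BV2 called 1941 genes (from 292 to 4025). Hypoxia in BMDM with DMSO called 72 genes (from 0 to 3259), panobinostat in BMDM called 0 genes (from 0 to 2867), the hypoxia effect of BMDM minus BV2 called 106 genes (from 0 to 1372), the panobinostat effect of BMDM minus BV2 called 4 genes (from 0 to 613). Depth limits what can be said of Ciita in BV2, at no more than 20 counts a library, of the peptide-binding chains in BV2 without panobinostat, at no more than 10, and of Ciita and H2-Eb1 in GL261.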
